A study of Mus musculus with 9 samples.

Results

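The genes described here are 37 genes of fatty acid oxidation and of the peroxisome proliferator-activated receptors (PPARs), taken by name from a table of 22399 genes. They were chosen as a pathway list, covering the carnitine shuttle, mitochondrial and peroxisomal beta-oxidation, the PPARs and their targets, and all 37 names were found. The list was drawn up with earlier results of these data known, so its counts beside those of all genes are description only. RNA was sequenced from basal keratinocytes of the interfollicular epidermis of mouse plantar skin, freed by trypsin after removal of the fat under the skin and sorted as CD49f+ CD34- cells, in 9 libraries of 3 groups. The HFD group held 3 libraries from wild-type C57BL/6 mice fed a high-fat diet and aged 5 months. The aged group held 3 libraries from wild-type C57BL/6 mice of 24 months, for which the labels name no diet. The control group held 3 libraries from wild-type C57BL/6 mice fed a normal diet and aged 5 months. The labels give neither the composition nor the length of the high-fat diet, and do not say whether the 3 libraries of a group came from separate animals, so that p-values speak only of variation among these 9 libraries, part or all of which may be technical. The comparison of HFD with control addressed diet at equal age. That of aged with control addressed age, but with no diet named for the aged mice, age and diet cannot be told apart in it. That of aged with HFD asked directly whether these groups differed from each other.

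Fatty acids that enter a cell are joined to coenzyme A and passed into mitochondria by the carnitine shuttle, where each round of beta-oxidation shortens the chain through a dehydrogenase, a hydratase, another dehydrogenase and a thiolase. Peroxisomes run a related cycle on very long and branched chains. The PPARs are nuclear receptors that bind fatty acids and their derivatives, pair with retinoid X receptors and raise the transcription of many of these genes, and in keratinocytes PPARs are known for their part in differentiation, barrier lipids and wound repair. They bind a direct repeat of the hexamer AGGTCA, spaced by 1 base.

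Promoter sequences are shown for the members that changed and carry this hexamer, and for a pair of subunit genes that share a promoter. RefSeq start sites on GRCm38.p6, with 250 bases before and 50 bases after the start, were available for 31 of the 37 members (34 windows of 300 bases). They were not available for Fabp4, Fabp5, Acaa2, Decr1, Hsd17b4 and Angptl4. The direct repeat AGGTCANAGGTCA, where N is any base, on either strand, was in 0 of the 34 windows, as was AGGNCANAGGNCA, in which the fourth base of each hexamer is free, against 0.0396% and 0.381% of all 32851 promoter windows. The single hexamer AGGTCA, which is also contained in the repeat, was in 8 windows of 7 members (23.5% of the members' windows), against 16.3% of all windows. Capitals mark it in the 4 sequences that follow, read 5′ to 3′ on the strand of the gene, where TGACCT is the hexamer on the opposite strand. Cpt1a (chr19:3323051-3323350, plus strand), Acadvl (chr11:70015379-70015678, minus strand) and Plin2 (chr4:86670010-86670309, minus strand) were the 3 of 9 genes with a window among those that rose in HFD, and Acadm (chr3:153944594-153944893, minus strand) was 1 of 2 that rose in aged.
Cpt1a: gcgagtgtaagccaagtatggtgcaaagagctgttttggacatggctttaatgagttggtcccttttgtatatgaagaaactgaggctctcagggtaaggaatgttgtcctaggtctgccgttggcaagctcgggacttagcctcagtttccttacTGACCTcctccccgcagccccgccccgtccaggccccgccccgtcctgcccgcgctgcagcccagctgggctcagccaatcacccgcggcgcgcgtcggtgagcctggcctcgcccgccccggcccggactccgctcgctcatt
Acadvl: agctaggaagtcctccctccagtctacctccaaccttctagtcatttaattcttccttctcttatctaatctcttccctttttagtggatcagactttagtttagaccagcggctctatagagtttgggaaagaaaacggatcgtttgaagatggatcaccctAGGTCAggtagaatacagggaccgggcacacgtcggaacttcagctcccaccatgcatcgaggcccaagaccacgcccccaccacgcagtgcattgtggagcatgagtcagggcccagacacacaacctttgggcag
Plin2: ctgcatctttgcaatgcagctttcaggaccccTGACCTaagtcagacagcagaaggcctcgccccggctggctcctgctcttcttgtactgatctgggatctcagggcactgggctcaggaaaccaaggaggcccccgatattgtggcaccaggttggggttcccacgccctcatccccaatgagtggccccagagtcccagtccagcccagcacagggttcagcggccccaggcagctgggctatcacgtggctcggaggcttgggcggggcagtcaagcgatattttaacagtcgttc
Acadm: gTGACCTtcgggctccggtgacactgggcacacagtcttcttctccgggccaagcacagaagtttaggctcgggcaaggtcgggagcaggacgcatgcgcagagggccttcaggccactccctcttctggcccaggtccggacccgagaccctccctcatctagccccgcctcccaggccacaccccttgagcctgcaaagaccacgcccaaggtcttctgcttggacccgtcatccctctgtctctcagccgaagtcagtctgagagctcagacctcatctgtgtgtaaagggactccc
The hexamer began 94 bases before the start site in Cpt1a, 87 in Acadvl, 218 in Plin2 and 249 in Acadm. These letters were searched in the proximal windows only, and a match is not evidence of binding.

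Hadha and Hadhb encode the alpha and beta subunits of the mitochondrial trifunctional protein, and their start sites lay 273 bases apart on opposite strands. Their windows had 228 bases in common, printed in capitals in the window of Hadha (chr5:30154931-30155230, minus strand), which is shown because Hadha was called in HFD against control and Hadhb was not, a difference that was itself not tested.
Hadha: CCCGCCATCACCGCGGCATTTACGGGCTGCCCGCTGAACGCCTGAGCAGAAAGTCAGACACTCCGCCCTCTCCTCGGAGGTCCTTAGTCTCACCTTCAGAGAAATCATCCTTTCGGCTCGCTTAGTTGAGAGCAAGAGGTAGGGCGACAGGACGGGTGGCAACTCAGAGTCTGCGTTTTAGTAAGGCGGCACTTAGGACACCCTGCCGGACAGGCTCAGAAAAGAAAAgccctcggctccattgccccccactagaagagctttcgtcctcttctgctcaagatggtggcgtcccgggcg
Neither form of the direct repeat nor the single hexamer was in this window.

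Values are the deposited FPKM, fragments scaled by gene length and library size. Whole reads were recovered with the merged exon length of each gene, which can exceed the length of its transcripts. Ranks of level between genes therefore depend on annotation and are approximate. Low genes take steps of 1 read, from which the depth of the libraries was 23.5 to 35.8 M reads on genes. Basal keratinocyte markers were high in all libraries, led by Krt14 with a mean of 12461 FPKM, and the 6 summed to 26207 to 30905 FPKM in HFD, 23031 to 23977 in aged and 23061 to 29603 in control. Of them Itga6, which encodes the sort marker CD49f, was higher in HFD than in control (0.29 ± 0.07 on the log2 scale, adjusted p = 0.0168, limma) and lower in aged than in HFD (-0.40 ± 0.07, adjusted p = 0.00575). The other basal markers were not called in any comparison and went both ways in HFD against control. Krt5 and Krt14 had 0.17 ± 0.13 and 0.20 ± 0.12 there, and Trp63, Itgb4 and Col17a1 had -0.07 ± 0.09, -0.27 ± 0.12 and -0.16 ± 0.10. All 7 spinous and granular markers listed were also above 1 FPKM on average, with sums of 6046 to 8454 FPKM in HFD, 7845 to 10908 in aged and 6408 to 8142 in control. Krt1, a keratin of differentiating cells, was higher in aged than in control (0.61 ± 0.13, adjusted p = 0.0198, limma). The other spinous and granular markers were not called in any comparison. In aged against control Krt10, Sbsn, Ivl, Lor and Flg had log2 fold changes of 0.53, 0.50, 0.21, 0.21 and 0.15, and Krtdap had -0.17. In HFD against control Krt1, Krt10 and Flg had 0.30, 0.20 and 0.07. Krtdap, Sbsn, Ivl and Lor had -0.47, -0.10, -0.32 and -0.70 there. Of 7 adipocyte markers 0 reached a mean of 1 FPKM, with sums of 0.198 to 0.415 FPKM in HFD, 0.0938 to 0.129 in aged and 0.00653 to 0.368 in control, and Retn and Cfd were listed at 0 in every library. The 6 endothelial markers summed to 0.0932 to 0.165 FPKM in HFD, 0.106 to 0.203 in aged and 0.153 to 0.338 in control. The 7 macrophage, dendritic and Langerhans markers summed to 4.61 to 7.77 FPKM in HFD, 5.08 to 6.89 in aged and 6.10 to 11.9 in control. Of 6 fibroblast markers 1 reached a mean of 1 FPKM, the dermal proteoglycan Dcn, which was called lower in HFD than in control and higher in aged than in HFD. Dcn had 2.34, 2.33 and 1.41 FPKM in HFD, 3.53, 4.44 and 3.37 in aged, and 6.47, 4.45 and 4.75 in control. The fibroblast sums were 1.5 to 2.55 FPKM in HFD, 3.48 to 4.45 in aged and 4.51 to 6.64 in control. They were mostly Dcn, since Col1a1, Col1a2, Col3a1, Pdgfra and Lum reached at most 0.176 FPKM, in Col1a1 of HFD replicate 1. The part of these markers and cells in the results that follow was not tested. In sorted bulk samples fewer cells that express a gene and less RNA per cell cannot be told apart.

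Mean levels of the members ranged between 0.00653 and 93.0 FPKM. Acaa2, the mitochondrial thiolase, had the highest FPKM over the 9 libraries, followed by Etfa and Etfb, the subunits of the electron transfer flavoprotein, at 75.7 and 73.2 FPKM. This order depends on gene length. Ucp2, with 6989 merged exon bases against 1516 for Acaa2, had 5613 to 12851 reads against 2776 to 5399 for Acaa2. Of the 37 members 3 averaged 50 FPKM or more, 9 lay from 20 to 50, 15 from 5 to 20 and 6 from 1 to 5. The remaining 4 averaged under 1 FPKM and were not tested. They were Pparg, Pdk4, Cd36 and Fabp4, all known as PPAR-linked genes. The summed FPKM of the 37 members was 758, 780 and 749 in HFD, 778, 694 and 705 in aged, and 637, 623 and 631 in control. The sums of both HFD and aged libraries lay above all 3 controls.

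**Figure D1:**
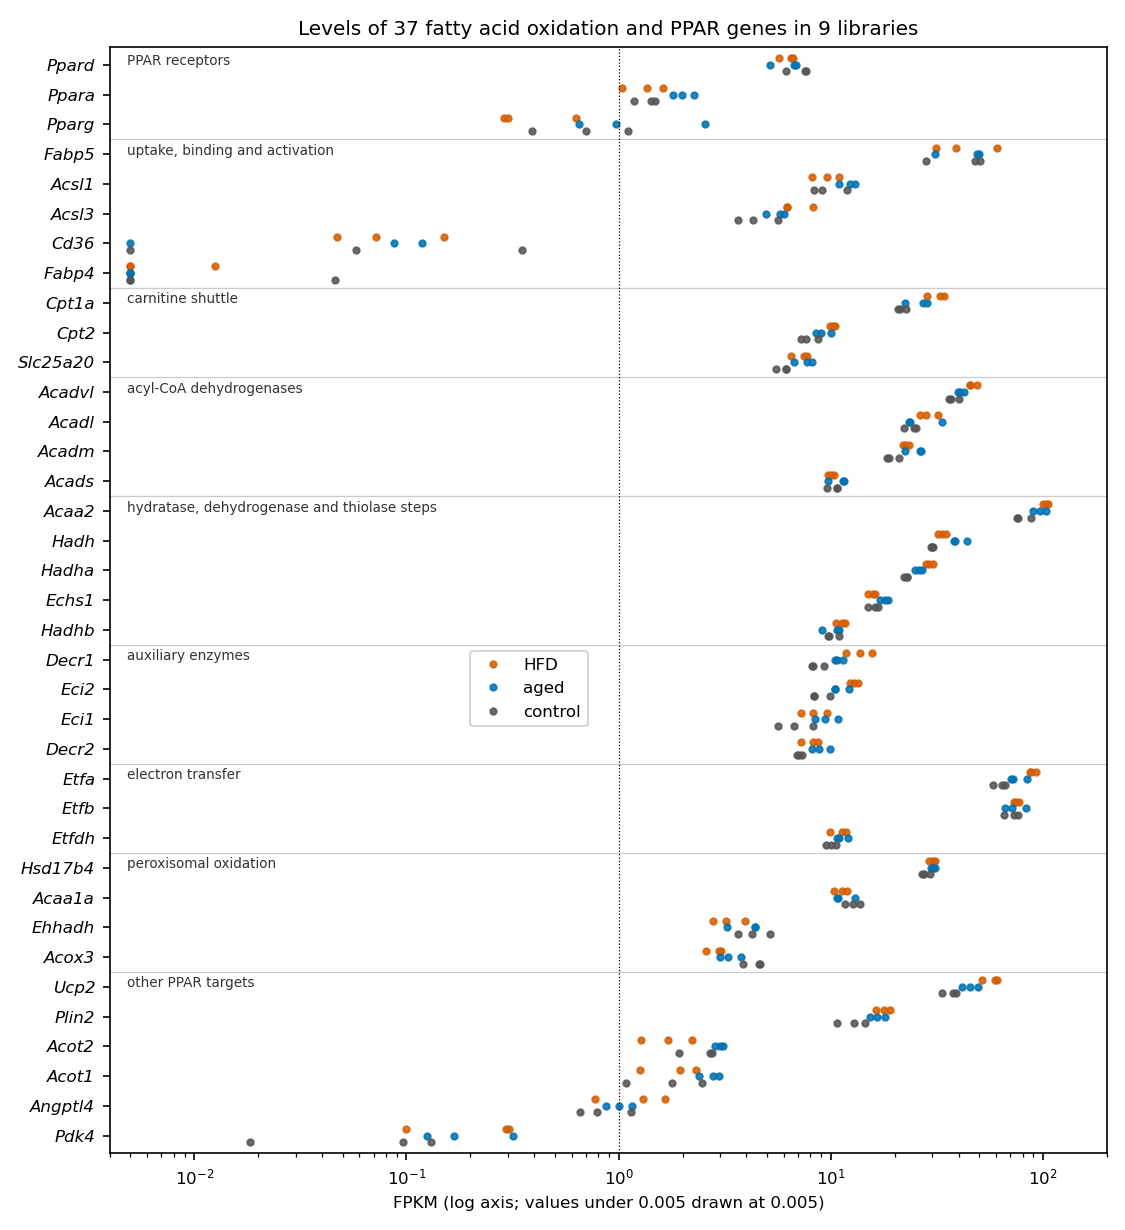
FPKM on a log axis for all 37 members, grouped by role, with 1 point per library for HFD, aged and control. Enzymes of mitochondrial oxidation lie between about 5 and 100 FPKM, whereas Cd36, Fabp4, Pdk4 and Pparg lie mostly left of the dotted line at 1 FPKM.

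Among the receptors, Ppard was the most abundant. Ppard, the PPAR best known from keratinocytes, had 5.71, 6.66 and 6.48 FPKM in HFD, 5.16, 6.88 and 6.67 in aged, and 7.58, 6.17 and 7.61 in control. Ppara, the receptor best known from liver, had 1.03, 1.63 and 1.35 FPKM in HFD, 1.80, 2.26 and 1.98 in aged, and 1.42, 1.18 and 1.48 in control. Every aged library was above every HFD and control library for Ppara, and for Ppard the 3 groups overlapped. Ppara had log2 fold changes of 0.35 ± 0.12 in aged against control (adjusted p = 0.0989, limma) and 0.37 ± 0.12 in aged against HFD (adjusted p = 0.0915), so neither passed the threshold of 0.05, and in HFD against control it had -0.02 ± 0.12. Ppard had -0.15 ± 0.11 in HFD against control and -0.17 ± 0.11 in aged against control (adjusted p = 0.361 and 0.366). Pparg, the receptor best known from fat cells and sebocytes, had 0.629, 0.287 and 0.302 FPKM in HFD, 2.56, 0.650 and 0.972 in aged, and 1.10, 0.702 and 0.391 in control, from 23 to 251 reads. Aged replicate 1 stood above all other libraries for Pparg. The 5 sebocyte markers listed, each under 1 FPKM on average, summed to 1.22 to 1.89 FPKM in HFD, 2.92 to 3.32 in aged and 0.786 to 3.40 in control. The sum of 2.92, the lowest in aged, was that of aged replicate 1, and the sum of 3.40 that of control replicate 1. A link between Pparg and sebocytes was not tested. With no filter on low values Pparg had a fold change of 0.70 ± 0.28 in aged against HFD (adjusted p = 0.221).

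Several well known PPAR targets of fat, muscle and liver were scarce in these cells. Fabp4, a fatty acid binding protein of fat cells and macrophages, was listed at 0 in 7 of 9 libraries and had 2 reads in HFD replicate 1 and 5 reads in control replicate 2. Cd36, a fatty acid receptor of the plasma membrane, had 0.0470, 0.0719 and 0.151 FPKM in HFD, 0, 0.0877 and 0.118 in aged, and 0.351, 0.0578 and 0 in control, at most 41 reads. The groups overlapped for both genes. Pdk4, a kinase that shuts off pyruvate dehydrogenase, had 0.305, 0.294 and 0.0992 FPKM in HFD, 0.318, 0.125 and 0.167 in aged, and 0.0964, 0.130 and 0.0182 in control, from 2 to 38 reads, and its groups overlapped. Angptl4, a secreted inhibitor of lipoprotein lipase, had 1.66, 1.3 and 0.776 FPKM in HFD, 0.869, 1.16 and 1.0 in aged, and 0.790, 0.656 and 1.14 in control. Its groups overlapped too, with 0.26 ± 0.16 in HFD against control (adjusted p = 0.281) and 0.12 ± 0.16 in aged against control (adjusted p = 0.684).

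In HFD against control, 8 genes of the enzymes and carriers of fatty acid oxidation rose, namely Cpt1a, Cpt2, Acadvl, Hadha, Acaa2, Decr1, Eci2 and Etfa. Ucp2, Plin2 and Acsl3 also rose, and Acox3, which encodes a peroxisomal oxidase, fell. Each fold change is a log2 ratio of FPKM + 1, given ± SE, from a limma fit of all 9 libraries, with p adjusted over the 10367 genes that averaged 1 FPKM or more. This scale understates the change of low genes. Of the 33 members tested 11 rose, where 8.26% of all genes tested were called higher, and 1 fell, where 8.76% were called lower. The list is not independent of these data, since earlier results were known when it was made. In 15 of the 33 all HFD libraries lay above all control libraries and in 1 they lay below, where 20.8% and 19.6% of all genes did so. A fold change above 0 was seen in 24 of the 33 members and in 5343 of the 10367 genes, and the median was 0.16 over the members and 0.01 over all genes tested. With libraries scaled to the same total FPKM, 5.77% of all genes were called higher and 11.2% lower, and 10 members rose and 1 fell.

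In the carnitine shuttle 2 of 3 members rose, and of 3 tested members of uptake, binding and activation 1 rose. Cpt1a, the outer membrane transferase that commits fatty acids to mitochondria, had 28.4, 32.7 and 33.9 FPKM in HFD, against 20.8, 21.1 and 22.6 in control. Every HFD library lay above every control library (0.54 ± 0.10, adjusted p = 0.00535). Cpt2, the inner membrane transferase, had 10.3, 10.4 and 9.86 FPKM in HFD, against 7.26, 8.66 and 7.66 in control (0.34 ± 0.08, adjusted p = 0.0210). Slc25a20, the carrier between them, had 7.47, 6.51 and 7.70 FPKM in HFD, against 6.17, 5.51 and 6.16 in control, without overlap but not called (0.24 ± 0.09, adjusted p = 0.0874). Acsl3, a long-chain acyl-CoA synthetase of the endoplasmic reticulum and lipid droplets, had 6.23, 8.21 and 6.21 FPKM in HFD, against 5.61, 3.66 and 4.28 in control (0.52 ± 0.14, adjusted p = 0.0258). Acsl1, the related synthetase of outer mitochondrial and other membranes, overlapped between the groups, at 10.9, 9.56 and 8.19 FPKM in HFD, against 9.08, 11.9 and 8.36 in control (-0.02 ± 0.13).

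Of the 4 dehydrogenases that start each round 1 rose, as did 1 of 3 genes of electron transfer. Acadvl, for very long chains, had 45.0, 45.0 and 49.0 FPKM in HFD, against 36.2, 36.9 and 40.2 in control (0.29 ± 0.07, adjusted p = 0.0179). Acadl and Acadm, for long and medium chains, had HFD libraries all above control, at 26.3 to 32.1 FPKM in HFD against 22.1 to 25.3 in control for Acadl and 21.9 to 23.4 in HFD against 18.4 to 20.9 in control for Acadm, but neither was called (adjusted p = 0.190 and 0.0978). Acads, for short chains, overlapped, at 9.66 to 10.3 FPKM in HFD and 9.54 to 10.7 in control (-0.04 ± 0.08). The exons of Acadvl overlap those of Dvl2 on the opposite strand by 1151 bases, and the use of strand in counting is not given in the sources used here. The electrons of these enzymes pass to the flavoprotein made of Etfa and Etfb. Etfa had 87.7, 87.2 and 92.2 FPKM in HFD, against 66.2, 57.8 and 64.2 in control (0.50 ± 0.08, adjusted p = 0.00360). Etfb had 73.0, 77.3 and 74.6 FPKM in HFD, against 65.2, 72.9 and 75.7 in control (0.07 ± 0.09, adjusted p = 0.597). Etfb shares 44.8% of its 50-base stretches with other genes, mainly the gene model Gm45233 on its own strand, so its level is uncertain. Etfdh, which passes the electrons on to ubiquinone, had 9.89 to 11.8 FPKM in HFD and 9.49 to 10.6 in control and was not called (adjusted p = 0.345).

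Of the later steps of the round, the alpha subunit of the trifunctional protein and the thiolase rose. Hadha had 30.4, 29.0 and 28.2 FPKM in HFD, against 22.2, 22.9 and 22.9 in control (0.35 ± 0.06, adjusted p = 0.00562). Hadhb, the beta subunit that starts from the other side of the promoter printed above, had 11.7, 10.6 and 11.3 FPKM in HFD, against 10.9, 9.84 and 9.72 in control (0.13 ± 0.09, adjusted p = 0.316). HFD and control libraries were apart for Hadha and overlapped for Hadhb. The ratio of Hadha to Hadhb FPKM within a library, a pair chosen after its values were seen, was 2.6, 2.74 and 2.49 in HFD, 2.37, 2.76 and 2.49 in aged, and 2.04, 2.33 and 2.36 in control. Hadhb shares 19.7% of its 50-base stretches with other genes, mainly the gene model Gm13910, so its level is uncertain. Acaa2 had 100.2, 105 and 103 FPKM in HFD, against 75.0, 76.0 and 87.7 in control (0.37 ± 0.08, adjusted p = 0.0115). Hadh, the hydroxyacyl-CoA dehydrogenase for shorter chains, had 34.8, 33.2 and 31.8 FPKM in HFD, against 29.9, 29.7 and 30.3 in control, apart but not called (adjusted p = 0.179). Echs1, the hydratase for shorter chains, had 14.9 to 16.1 FPKM in HFD and 15.03 to 16.7 in control (-0.04 ± 0.07).

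Of the 4 auxiliary enzymes for unsaturated fatty acids 2 rose. Decr1 (chr4:15917240-15945507 in the GENCODE M21 annotation of GRCm38, as for the other gene positions), the mitochondrial dienoyl-CoA reductase, had 15.6, 11.8 and 13.7 FPKM in HFD, against 9.30, 8.16 and 8.22 in control (0.62 ± 0.10, adjusted p = 0.00283). Eci2, an enoyl-CoA isomerase of mitochondria and peroxisomes, had 12.3, 12.9 and 13.5 FPKM in HFD, against 9.95, 8.33 and 8.29 in control (0.50 ± 0.09, adjusted p = 0.00523). All HFD libraries were above all controls for both. Eci1, the mitochondrial isomerase, had 0.25 ± 0.13 and Decr2, the peroxisomal reductase, 0.16 ± 0.09 (adjusted p = 0.205 and 0.238).

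Peroxisomal genes had 1 of 4 members called, and it was lower. Acox3 (chr5:35583040-35615352), an oxidase for branched chains, had 2.96, 3.04 and 2.57 FPKM in HFD, against 3.86, 4.64 and 4.60 in control (-0.47 ± 0.10, adjusted p = 0.0122). Its groups did not overlap, and 700 of its exon bases overlap a gene on the opposite strand. Ehhadh, the bifunctional enzyme of the straight-chain cycle, had 3.94, 2.77 and 3.22 FPKM in HFD, against 4.23, 3.65 and 5.19 in control (-0.31 ± 0.14, adjusted p = 0.142). Acaa1a, the peroxisomal thiolase, had -0.17 ± 0.09 and Hsd17b4, the other bifunctional enzyme, 0.11 ± 0.07 (adjusted p = 0.227 and 0.281). Exons of Ucp2, Eci2 and Hadha overlap genes on the opposite strand by 305, 189 and 75 bases, and those of Acsl3 overlap Utp14b on its own strand by 244 bases. Acaa1a shares 12.9% of its 50-base stretches, mostly with its copy Acaa1b.

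Ucp2 and Plin2 rose among the other PPAR targets. Ucp2 (chr7:100493337-100502020), a carrier of the inner mitochondrial membrane, had 51.7, 61.0 and 59.3 FPKM in HFD, against 38.9, 33.3 and 37.6 in control (0.63 ± 0.09, adjusted p = 0.00213). By p it ranked at 89 among the 10367 genes tested, and the other members ranked below it. Plin2, the coat protein of lipid droplets, had 18.9, 16.2 and 17.7 FPKM in HFD, against 14.5, 10.6 and 12.9 in control (0.45 ± 0.11, adjusted p = 0.0171). Neither gene had overlapping groups. Acot2, a mitochondrial acyl-CoA thioesterase, had 2.22, 1.71 and 1.27 FPKM in HFD, against 2.75, 2.68 and 1.93 in control (-0.34 ± 0.14, adjusted p = 0.107), and its cytosolic neighbour Acot1 had 0.04 ± 0.19. Fabp5, the epidermal fatty acid binding protein, had 38.8, 60.7 and 31.2 FPKM in HFD, 49.7, 48.7 and 30.9 in aged, and 47.8, 50.2 and 28.2 in control. Fabp5 was lowest in replicate 3 of each group, the groups overlapped, and its fold changes were 0.04 ± 0.26 in HFD and 0.05 ± 0.26 in aged against control.

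**Figure D2:**
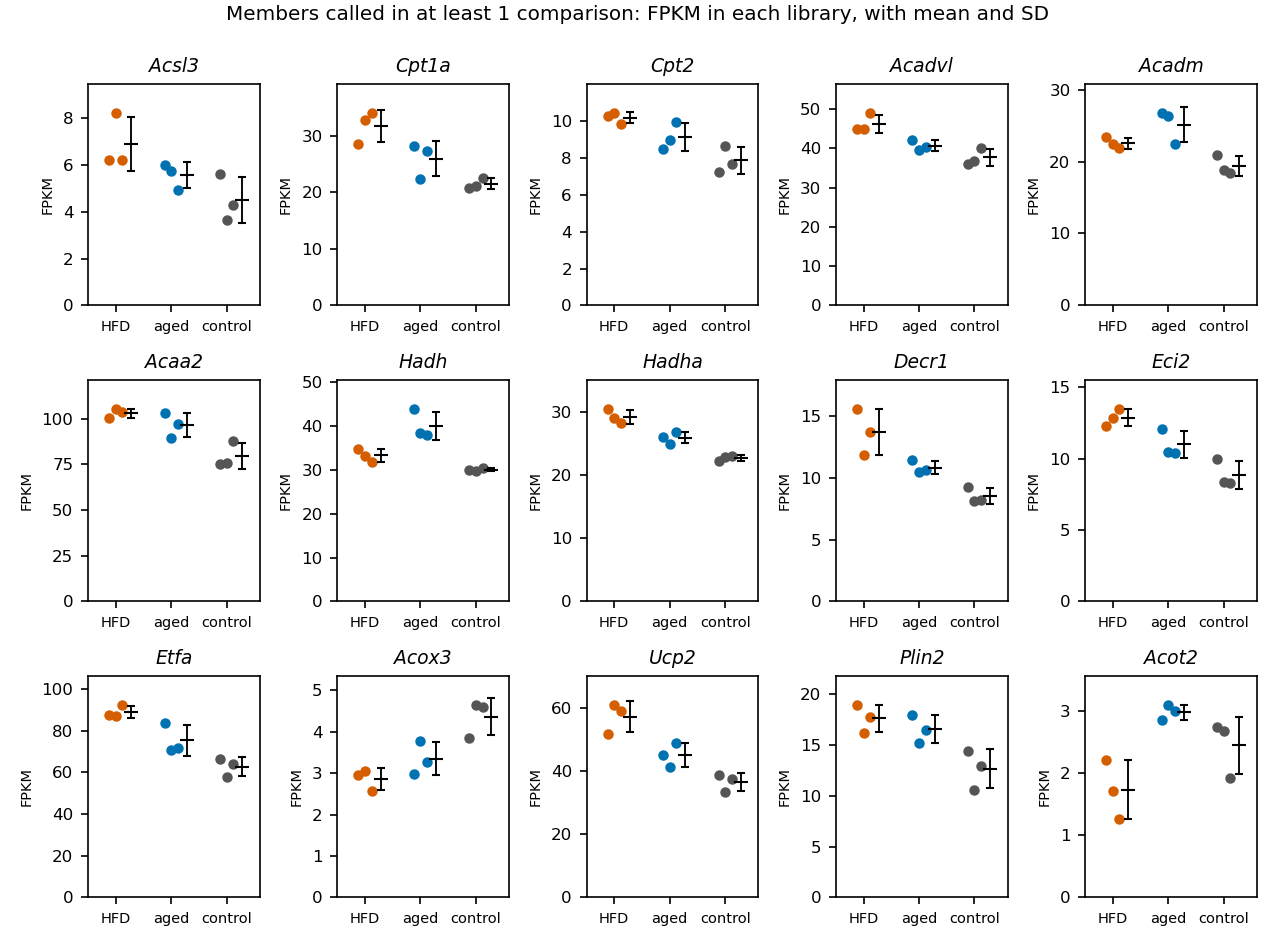
FPKM in each library for the 15 members called in at least 1 comparison, with HFD, aged and control from left to right, points for libraries and bars for mean ± SD (n = 3 each), on axes that start at 0. For 11 of them the HFD libraries lie above the controls with an adjusted p under 0.05, Acox3 lies below, and Acadm, Hadh and Acot2 are higher in aged than in the group they were compared with.

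Without control replicate 2, the library with the lowest depth, 7 members rose and 0 fell by limma, where 3.71% and 3.51% of all genes tested were called, and the calls of Acsl3, Acadvl, Acaa2, Plin2 and Acox3 ended (adjusted p between 0.0502 and 0.0965). Cpt1a, Hadha, Decr1, Eci2, Etfa and Ucp2 were called in each of 20 other settings, those without single libraries included, whereas the call of Cpt2 also ended without HFD replicate 1 or 2 or control replicate 1 or 3 and with scaling to total FPKM (adjusted p = 0.0504), that of Acsl3 without HFD replicate 2 or control replicate 3, with no filter on low values (adjusted p = 0.0740) and after a GC correction (0.0636, and 0.0729 where a replicate block was added), that of Acadvl without HFD replicate 3 or control replicate 1, and that of Plin2 without HFD replicate 1. Beside these counts, fold changes in HFD against control varied with the GC content of transcripts over all genes (Spearman's rho = -0.46 across genes, which are not independent replicates), the members' median GC content was 50.7% against 49.8% in all genes tested, and after a GC correction 10 members rose and 1 fell, where 5.85% and 5.35% of all genes were called.

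In aged against control, Hadh and Acadm passed the test, and most other members had fold changes above 0 that did not. Of the 33 tested, 2 rose, where 4.01% of all genes tested were called higher, and 0 fell, where 3.74% were called lower, by limma. At an unadjusted p under 0.05, 17 members were higher and 1 lower, where 12.2% and 13.6% of all genes were. In 17 of the 33 all aged libraries lay above all control libraries and in 1 below, where 13.7% and 14.1% of all genes did so. A fold change above 0 was seen in 29 of the 33 members and in 5063 of the 10367 genes, and the median was 0.22 over the members and -0.01 over all genes tested. With libraries scaled to the same total FPKM, 3.45% of all genes were called higher and 4.89% lower, and again 2 members were higher.

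Hadh and Acadm act on shorter and medium chains, but Acads and Echs1, also for shorter chains, were not called. By limma Acads had 0.07 ± 0.08 and Echs1 0.15 ± 0.07 in aged against control (adjusted p = 0.61 and 0.208). Hadh (chr3:131233419-131272101) had 43.8, 38.3 and 37.9 FPKM in aged, against 29.9, 29.7 and 30.3 in control (0.40 ± 0.07, adjusted p = 0.00938). Acadm, the medium-chain dehydrogenase, had 26.7, 26.3 and 22.4 FPKM in aged, against 20.9, 18.8 and 18.4 in control (0.36 ± 0.08, adjusted p = 0.0260). All aged libraries were above all controls for both. The call of Hadh held in all 20 other settings, and that of Acadm ended in 5, namely with only the 6 libraries compared and without aged replicate 1 or 2 or control replicate 2 or 3 (adjusted p up to 0.0963).

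Several members had aged libraries above all controls without passing the threshold. Acaa2 had 103, 89.6 and 97.1 FPKM in aged, against 75.0, 76.0 and 87.7 in control (0.28 ± 0.08, adjusted p = 0.0561). Plin2 had 18.0, 15.2 and 16.4 FPKM in aged, against 14.5, 10.6 and 12.9 in control (0.37 ± 0.11, adjusted p = 0.0579). Ucp2 had 45.3, 41.4 and 49.1 FPKM in aged, against 38.9, 33.3 and 37.6 in control (0.30 ± 0.09, adjusted p = 0.0675). The aged means of Plin2 and Ucp2 lay between those of HFD and control. All 4 auxiliary enzymes were also apart from control, Eci1 at 9.38, 8.39 and 10.9 FPKM in aged against 5.64, 6.69 and 8.24 in control, Decr1 at 10.5 to 11.4 in aged against 8.16 to 9.30 in control, Eci2 at 12.1, 10.5 and 10.4 in aged against 9.95, 8.33 and 8.29 in control, and Decr2 at 8.15 to 9.89 in aged against 6.94 to 7.33 in control, with adjusted p between 0.0694 and 0.0727. Cpt1a overlapped in 1 library, at 28.2, 22.4 and 27.3 FPKM in aged against 20.8, 21.1 and 22.6 in control (0.26 ± 0.10, adjusted p = 0.123). Acox3 had values below all controls, at 2.99, 3.79 and 3.28 FPKM in aged against 3.86, 4.64 and 4.60 in control (-0.30 ± 0.10, adjusted p = 0.0927). After a correction for GC content 4 members were called higher, where 4.01% of all genes were, the same share as without it.

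The remaining genes called in HFD against control were not called in aged against control. Etfa had 83.8, 70.5 and 71.7 FPKM in aged, against 66.2, 57.8 and 64.2 in control (0.26 ± 0.08, adjusted p = 0.0769). Hadha had 25.9, 24.9 and 26.8 FPKM in aged, against 22.2, 22.9 and 22.9 in control (0.18 ± 0.06, adjusted p = 0.0980). Aged libraries lay above all controls for both. Cpt2 had 8.48, 8.98 and 9.96 FPKM in aged, against 7.26, 8.66 and 7.66 in control (0.20 ± 0.08, adjusted p = 0.172). Acadvl had 42.3, 39.6 and 40.4 FPKM in aged, against 36.2, 36.9 and 40.2 in control (0.11 ± 0.07, adjusted p = 0.349). Acsl3 had 6.00, 5.76 and 4.95 FPKM in aged, against 5.61, 3.66 and 4.28 in control (0.27 ± 0.14, adjusted p = 0.249). For these 3 genes the groups overlapped. By role, the median fold change in aged against control was 0.26 for the carnitine shuttle, 0.12 for the dehydrogenases, 0.18 for the hydratase, dehydrogenase and thiolase steps, 0.30 for the auxiliary enzymes, 0.15 for electron transfer and -0.12 for the peroxisomal genes. The same medians in HFD against the same control libraries were 0.34, 0.23, 0.15, 0.38, 0.12 and -0.24, in that order.

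**Figure D3:**
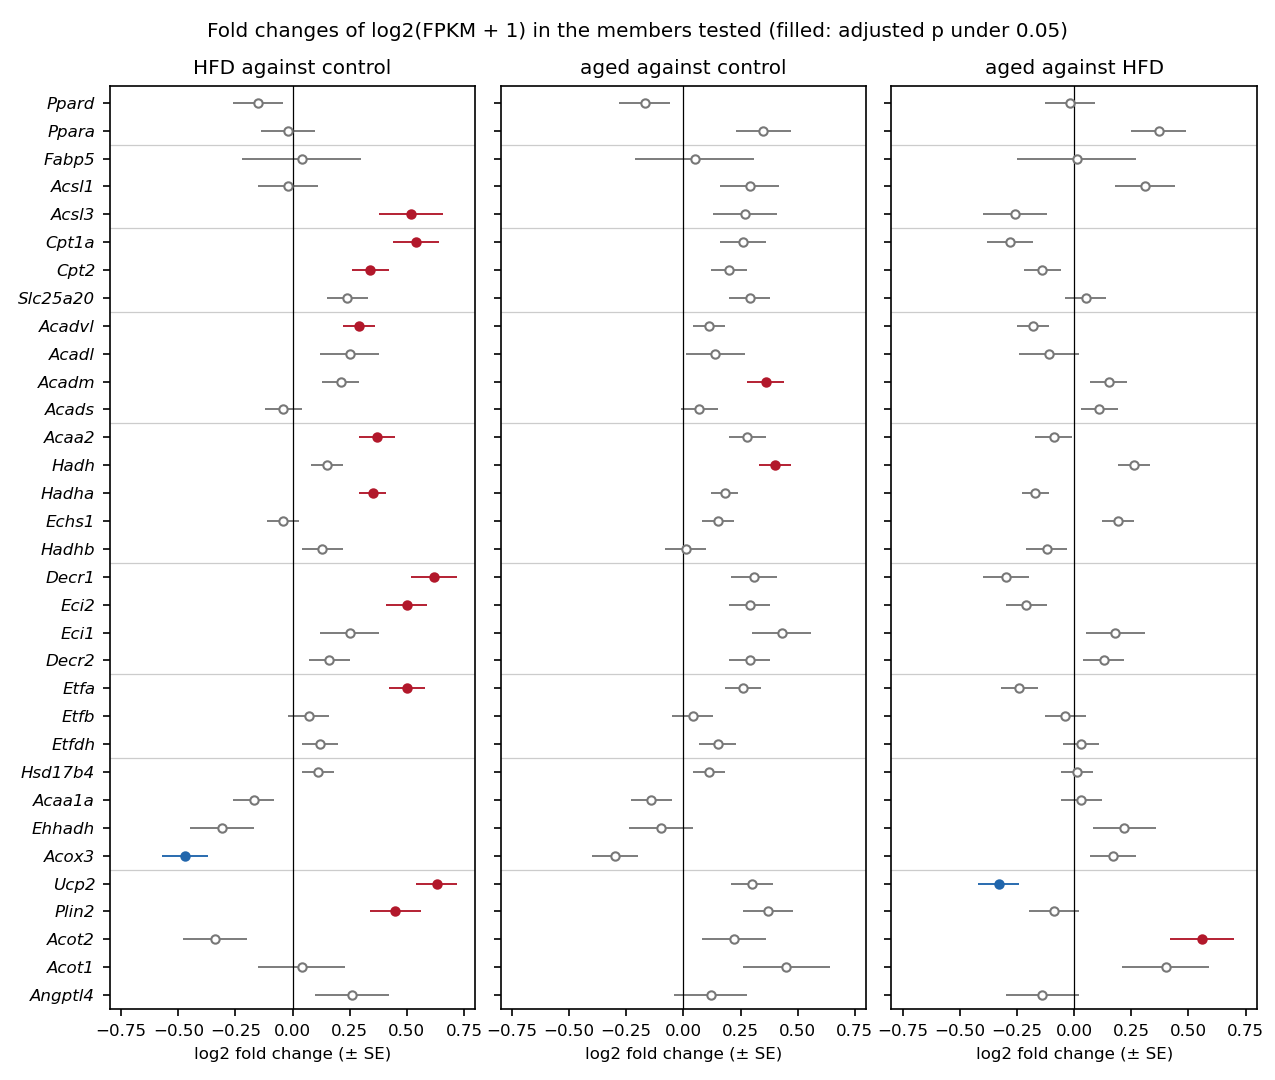
Log2 fold change of FPKM + 1 (x axis, point ± SE from limma) for the 33 members tested, by role from top to bottom, in panels for HFD over control, aged over control and aged over HFD; filled points have an adjusted p under 0.05. In HFD 11 points are filled to the right of 0 and 1 to the left, in aged against control 2 to the right, and in aged against HFD 1 on each side.

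Aged and HFD libraries were compared directly, since both comparisons with control share the control libraries. Of the 33 members 1 was higher in aged, where 3.54% of all genes tested were called higher, and 1 was lower, where 4.45% were called lower. At an unadjusted p under 0.05, 5 members were higher and 7 lower, where 11.8% and 12.7% of all genes were. Ucp2 had 45.3, 41.4 and 49.1 FPKM in aged, against 51.7, 61.0 and 59.3 in HFD (-0.33 ± 0.09, adjusted p = 0.0456). Acot2 had 2.86, 3.10 and 3.0 FPKM in aged, against 2.22, 1.71 and 1.27 in HFD (0.56 ± 0.14, adjusted p = 0.0331). Neither gene had overlapping groups. Acot1 and Acot2 share sequence, 19.2% and 27.7% of their 50-base stretches, so reads may be split between them. Their summed FPKM was 5.63, 5.50 and 5.96 in aged, 4.16, 4.04 and 2.52 in HFD, and 5.22, 4.46 and 3.01 in control, with every aged library above every HFD library.

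Other members lay apart between aged and HFD without passing the threshold. Aged libraries were above all HFD libraries in 5 of the 33 and below in 8, where 13.9% and 15.9% of all genes did so. Hadh had 43.8, 38.3 and 37.9 FPKM in aged, against 34.8, 33.2 and 31.8 in HFD (0.26 ± 0.07, adjusted p = 0.0537). Decr1 had 11.4, 10.5 and 10.6 FPKM in aged, against 15.6, 11.8 and 13.7 in HFD (-0.30 ± 0.10, adjusted p = 0.0784). Etfa had 83.8, 70.5 and 71.7 FPKM in aged, against 87.7, 87.2 and 92.2 in HFD (-0.24 ± 0.08, adjusted p = 0.0976). Cpt1a and Hadha, both called in HFD against control, had -0.28 ± 0.10 and -0.17 ± 0.06 in aged against HFD (adjusted p = 0.0999 and 0.131), so for these genes a difference between the groups was not shown. The call of Acot2 ended in 6 of its 19 other fits, among them each left-out aged library and HFD replicate 2 or 3, and that of Ucp2 in 10 of 20, among them aged replicate 1 or 2, HFD replicate 2 or 3 and control replicate 1 or 3 (adjusted p up to 0.155).

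**Figure D4:**
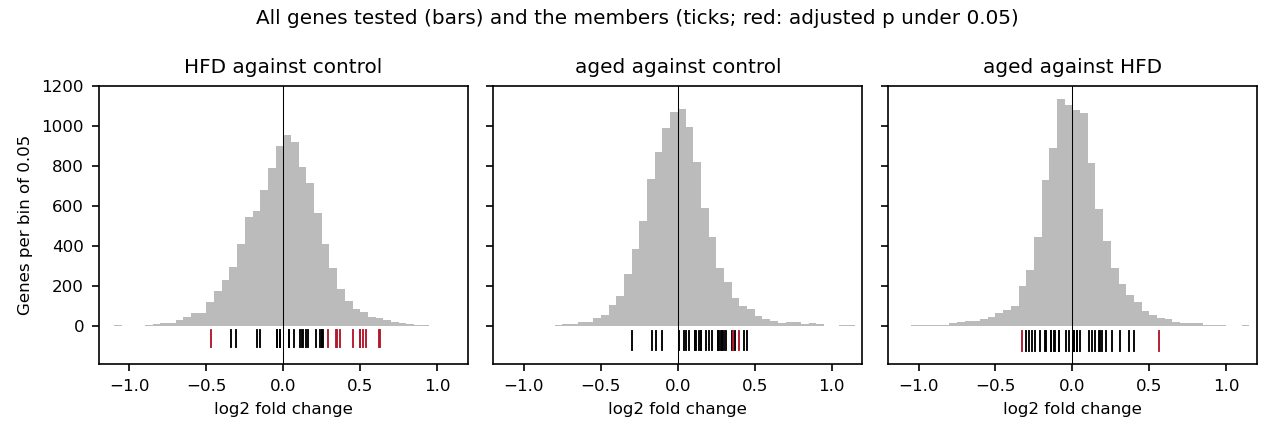
Number of genes per bin of log2 fold change (bars, all 10367 genes tested, x axis drawn from -1.2 to 1.2) and the 33 members (ticks under the bars, red where adjusted p was under 0.05) in the 3 comparisons. The ticks reach from -0.47 to 0.63 in HFD against control with a median of 0.16, from -0.30 to 0.45 in aged against control with a median of 0.22, and from -0.33 to 0.56 in aged against HFD with a median of 0.01.

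Another 82 genes of the same pathways were listed beside the members, of which 81 were in the table and 56 reached the expression minimum. In HFD against control 3 of the 56 rose and 0 fell, with a median fold change of 0.05. Acot9, a mitochondrial thioesterase, had 61.9, 65.3 and 67.2 FPKM in HFD, against 43.7, 46.8 and 47.4 in control (0.49 ± 0.09, adjusted p = 0.00548). Abcd3, a transporter of the peroxisomal membrane, and Crot, a peroxisomal carnitine transferase, rose by 0.32 ± 0.07 and 0.34 ± 0.08 (adjusted p = 0.00973 and 0.0213). In aged against control 3 rose and 0 fell, with a median of 0.08. Pdk1, a kinase of pyruvate dehydrogenase, had 20.1, 19.3 and 22.1 FPKM in aged, against 15.4, 15.7 and 15.1 in control (0.39 ± 0.07, adjusted p = 0.00881), and Scp2, a peroxisomal lipid carrier and thiolase, and Acot9 had 0.34 ± 0.08 and 0.33 ± 0.09 (adjusted p = 0.0332 and 0.0451). In aged against HFD 1 rose and 0 fell, namely Acsl4, an acyl-CoA synthetase that prefers arachidonate, with 11.7, 9.40 and 8.73 FPKM in aged, against 6.84, 6.66 and 7.36 in HFD (0.45 ± 0.11, adjusted p = 0.0337). Over all genes tested the shares called higher were 8.26%, 4.01% and 3.54% in the 3 comparisons, and the shares called lower 8.76%, 3.74% and 4.45%. The counts that rose were near or below that background, and in each comparison 0 fell. Among 9 PPAR partners tested 0 were called in any comparison by limma, and Rxra, the main partner receptor, had 53.2, 56.1 and 59.8 FPKM in HFD, 52.5, 46.3 and 61.2 in aged, and 54.2, 64.5 and 65.5 in control.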

How the data were processed

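RNA of 9 sorted basal keratinocyte libraries, 3 each of HFD, aged and control, was sequenced. FPKM per gene were used as the authors deposited them in a single table. Per the submitters' processing notes cutadapt, STAR 2.6.0c, HTSeq 0.11.2 and DESeq2 1.30.0 were used with the mm10 build, and which of them gave the FPKM, the gene lengths and the use of strand are not given in the sources used here. With merged exon lengths of GENCODE M21, low values were whole multiples of a read for 97.5% to 98.3% of values up to 30 reads (within 0.02 of a whole number), which gave the depth per library. The members and gene lists were chosen with earlier results of these data known.

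The tests used limma (version 3.58.1, R 4.3.3) on log2 values after adding 1 FPKM, with group means as the model, all 9 libraries in 1 fit, 6 residual degrees of freedom, a trended prior and two-sided tests. All 10367 genes that averaged 1 FPKM or more were tested, adjusted by Benjamini-Hochberg, and called at an adjusted p under 0.05. Named in full were members called in any comparison and a fixed set of receptors and targets, and the remaining members were given by role. The fit was tested on simulated data. Alternatives were another pseudocount, other filters, other scalings, a robust prior, a GC correction, a replicate block, only the 6 libraries compared, and each library left out. Positions, overlaps and GC content were read from the GENCODE M21 annotation (GRCm38; 22285 gene IDs matched), and promoters from RefSeq on GRCm38.p6. Shared 50-base stretches were counted over annotated transcripts.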

Additional observations from a re-analysis of the deposited data

How the results depend on the processing

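Across 20 alternatives 0 called members changed direction in any comparison. In HFD against control, where 11 members were higher and 1 lower, single left-out libraries gave 7 to 11 higher and 0 to 1 lower, with 7 and 0 without control replicate 2, and a minimum mean of 5 FPKM gave 0 lower because Acox3 was then not tested. In aged against control, where 2 were higher and 0 lower, left-out libraries gave 1 to 4 higher (1 without aged replicate 1, aged replicate 2 or control replicate 2, and 4 without control replicate 1), the GC correction 4 and the fit of the 6 libraries compared 1. In aged against HFD, where 1 was higher and 1 lower, left-out libraries gave 0 to 1 in each direction. No filter gave 0 and 0, a minimum mean of 5 FPKM 0 higher because Acot2 was then not tested, quantile normalization and scaling to total FPKM 2 higher and 0 lower, and the fit of the 6 libraries compared 0 lower. Apart from the filters, the cause of these changes was not tested.

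Over all genes, left-out libraries gave 385 to 1039 calls higher and 364 to 1072 lower in HFD against control (856 and 908 with all), 190 to 592 and 114 to 662 in aged against control (416 and 388), and 168 to 355 and 200 to 432 in aged against HFD (367 and 461). In the same order, the GC correction gave 606 and 555, 416 and 358, and 338 and 509, no filter gave 598 and 597, 326 and 244, and 225 and 316, and the fit of the 6 libraries compared gave 949 and 1005, 274 and 195, and 331 and 371.

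The labels do not say that a replicate number marks a shared batch, and the data leave a pairing unsettled. Deviations from the group means correlated at 0.19 to 0.27 for the 3 pairs of replicates 3, at -0.05 to 0.12 for the 6 other pairs with the same number, and at -0.29 to 0.22 for the 18 pairs with different numbers. In 10 of 18 cases a library correlated best with its own number, so that the block was kept as an alternative. With a replicate block 11 members were higher and 1 lower in HFD against control (9.43% and 10.4% of all genes), and 8 were higher in aged against control (5.37%), where Acaa2, Decr1, Decr2, Eci1, Etfa and Plin2 were called beside Hadh and Acadm. In aged against HFD 2 were higher and 2 lower (4.49% and 5.04%). The block with the GC correction gave 10 and 1 (6.47% and 5.77%), 6 higher (4.51%), and 2 and 2 (3.87% and 5.48%). With 3 libraries a group, smaller differences may be missed, and an uncalled member may still differ. Pparg, Pdk4, Cd36 and Fabp4 rest on few reads.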

Other observations

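The Cpt1 gene family has 3 forms, of which Cpt1a was called in HFD against control. The other 2 lay under the expression minimum and were chosen after their values were seen. Among the 25 other pathway genes under that minimum, 2 of them listed at 0 in every library, only Cpt1c passed in any comparison when no filter was used. Over all genes the fit without a filter called 3.81% higher and 3.8% lower in HFD against control. In aged against control it called 2.08% and 1.55%, and in aged against HFD 1.43% and 2.01%. A count of 1 such gene was near that background. Cpt1c, the form known from neurons, had 0.648, 0.737 and 0.967 FPKM in HFD, 0.969, 1.2 and 0.983 in aged, and 0.384, 0.333 and 0.366 in control. Every HFD and aged library was above every control library, and with no filter on low values (15708 genes tested) limma gave 0.39 ± 0.07 in HFD against control (adjusted p = 0.0232) and 0.59 ± 0.07 in aged against control (adjusted p = 0.0116), which share the control libraries. Cpt1b, the form of muscle, had 0.284, 0.449 and 0.471 FPKM in HFD, 0.662, 0.625 and 0.841 in aged, and 0.693, 0.861 and 0.637 in control. Every HFD library was below every aged and control library, but Cpt1b passed in no comparison, with -0.30 ± 0.08 in HFD against control (adjusted p = 0.0522), -0.02 ± 0.08 in aged against control (adjusted p = 0.936) and 0.29 ± 0.08 in aged against HFD (adjusted p = 0.0884).

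Several genes that accompany fatty acid oxidation in muscle, liver or brown fat were near 0 in all groups. Of the 81 other pathway genes in the table, 22 were under 1 FPKM in every library, and Ucp1, the uncoupling protein of brown fat, and Abcd2, a peroxisomal transporter, were listed at 0 in all 9. Ppargc1a, a coactivator of the PPARs, reached at most 0.159 FPKM, and Lpl, the lipase that releases fatty acids from lipoproteins, at most 0.484 FPKM.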
